A study of Mus musculus with 12 samples.

Results

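The collagen genes beyond bone and cartilage were a fixed set of 38 of the 21951 protein-coding genes of the mouse annotation (GENCODE, GRCm38). Every H3K27ac or H3K27me3 region that overlapped the body of a member, or 10 kb on either side of it, was taken as a region of that gene. The rule found 107 of 31617 H3K27ac regions, which touched 32 of the 38 genes, and 103 of 28047 H3K27me3 regions, which touched 31. The set leaves out Col1a1, Col1a2, Col2a1 and Col10a1, and also the collagen IV chains Col4a5 and Col4a6, so its network family is not complete. It holds the collagen IX and XI chains, which are themselves cartilage collagens, so the name of the set fits its members only in part.

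The marks were profiled by CUT&RUN, in which antibody-bound nuclease cuts out the chromatin that carries a histone mark for sequencing, in cultured mouse mesenchymal stem cells (MSCs). Young cells came from mice of 3 to 5 months and old cells from mice of 18 to 22 months, all cells were kept in αMEM with serum at 2% O2, and each sample's cells were shared out over the antibody tubes. Each age had 3 libraries per mark, 12 in all. The labels give no strain, sex or number of mice and do not tie a sample to an animal, so the p-values measure the spread between these samples. Library totals recovered from the tables ran from 2750953 to 5541429 reads for H3K27ac and from 3622108 to 9947515 for H3K27me3, with median reads per region of 12 to 30 and 28 to 79. Old replicate 2 was the shallowest library of both marks. Levels are given as scaled RPM, the reads of a region relative to the reads of the library after scaling between samples, and fold changes, written old minus young, are on the scale log2(scaled signal + 0.5).

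Collagens are triple helices built from 3 chains, and the families differ in what the helices assemble into. Fibrillar collagens form the banded fibrils that carry tension, network collagens form the sheets of basement membranes, and FACITs, multiplexins and beaded or anchoring collagens decorate or tether these structures. Transmembrane collagens stay in the cell membrane and can be shed from it. Acetylation of lysine 27 of histone H3 (H3K27ac) marks active promoters and enhancers, while trimethylation of the same residue (H3K27me3) is laid down by Polycomb repressive complex 2 and marks silenced developmental genes. Promoters held by Polycomb are often rich in CG dinucleotides.

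To show what lay under the marks, 5 promoter sequences are given from the RefSeq set (GRCm38.p6), each with 250 bases before and 50 bases after the transcript start. They were read 5′ to 3′ on the strand of the gene, and capitals mark CG dinucleotides, which read the same on both strands. They stand for a promoter under H3K27ac alone (Col3a1, chr1:45311288-45311587, plus strand, 0 CG), under both marks (Col4a2, chr8:11312555-11312854, plus strand, 33 CG) and under H3K27me3 alone (Col25a1, chr3:130180595-130180894, plus strand, 23 CG). The last pair are the upstream promoter of Col18a1 (chr10:77166481-77166780, minus strand, 16 CG), under H3K27me3, and its downstream promoter (chr10:77113656-77113955, minus strand, 6 CG), under H3K27ac.
Col3a1: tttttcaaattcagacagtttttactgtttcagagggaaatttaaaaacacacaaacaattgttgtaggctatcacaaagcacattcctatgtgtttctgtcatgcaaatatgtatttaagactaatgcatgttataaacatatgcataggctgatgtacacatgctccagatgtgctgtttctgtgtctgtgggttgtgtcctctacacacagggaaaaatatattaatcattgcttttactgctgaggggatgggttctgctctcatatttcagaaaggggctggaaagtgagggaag
Col4a2: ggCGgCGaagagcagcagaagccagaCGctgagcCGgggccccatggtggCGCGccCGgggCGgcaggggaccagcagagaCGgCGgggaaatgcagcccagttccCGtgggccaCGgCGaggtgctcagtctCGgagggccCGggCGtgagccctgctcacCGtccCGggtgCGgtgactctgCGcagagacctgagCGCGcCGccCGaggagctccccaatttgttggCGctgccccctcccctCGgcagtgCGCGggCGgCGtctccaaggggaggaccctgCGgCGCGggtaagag
Col25a1: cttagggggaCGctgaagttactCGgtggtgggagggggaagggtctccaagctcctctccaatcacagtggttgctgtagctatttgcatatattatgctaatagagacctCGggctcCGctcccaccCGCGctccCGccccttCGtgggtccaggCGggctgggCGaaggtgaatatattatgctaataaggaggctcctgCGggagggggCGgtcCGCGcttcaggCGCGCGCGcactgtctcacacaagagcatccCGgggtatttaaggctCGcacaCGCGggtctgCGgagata
Col18a1 upstream: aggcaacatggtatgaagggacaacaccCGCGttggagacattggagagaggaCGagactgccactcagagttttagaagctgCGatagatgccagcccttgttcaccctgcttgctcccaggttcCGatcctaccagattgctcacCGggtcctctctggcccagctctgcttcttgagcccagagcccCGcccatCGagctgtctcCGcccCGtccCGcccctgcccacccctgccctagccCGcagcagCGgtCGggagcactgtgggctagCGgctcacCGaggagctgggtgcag
Col18a1 downstream: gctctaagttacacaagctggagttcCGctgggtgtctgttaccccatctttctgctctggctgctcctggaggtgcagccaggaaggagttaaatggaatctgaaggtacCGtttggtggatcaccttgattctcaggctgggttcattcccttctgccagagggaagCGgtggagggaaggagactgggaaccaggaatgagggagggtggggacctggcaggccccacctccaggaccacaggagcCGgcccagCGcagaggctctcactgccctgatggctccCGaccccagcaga

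The RefSeq set held promoters for 31 of the 38 genes. A CG was present in 94.6% of all 32851 promoters of the set, and the median promoter held 7. The collagen promoters under H3K27ac alone had a median of 9 CG, those under H3K27me3 alone 12, and those of genes with both marks 17. Low counts occurred on both sides: Col3a1 had none under H3K27ac, and Col9a1 had 0 and 1 at its promoters under H3K27me3.

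The collagens were divided between the marks, and most families held chains of more than one state. A promoter was counted as marked where a region reached within 1 kb of an annotated start of the gene. H3K27ac alone was found at 12 promoters, H3K27me3 alone at 14, both marks at 10 and neither at 2, Col22a1 and Col28a1. As shares of 38 genes these were 31.6%, 36.8%, 26.3% and 5.26%, against 44.6%, 24.9%, 9.0% and 21.5% of all protein-coding genes. With only regions above the median signal per kb of their mark, 14 collagen promoters had H3K27ac and 0 had both marks.

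Fibrillar collagens were mostly acetylated. Col3a1, the collagen of reticular fibres, Col5a1, Col5a2 and Col5a3, which set fibril diameter, and Col11a1, a nucleator of fibrils, had H3K27ac alone. Col11a2 had H3K27me3 alone, and Col24a1 and Col27a1 had both. Among network collagens only Col8a1 had H3K27ac alone, the basement membrane chains Col4a1 and Col4a2 and the network chain Col8a2 had both, and Col4a3 and Col4a4, the chains of the kidney filter, had H3K27me3 alone.

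The collagen VI chains fell into separate groups. Col6a1, Col6a2 and Col6a3, which make the common beaded filament, had H3K27ac alone, and Col6a4, Col6a5 and Col6a6, which can stand in for Col6a3 in that filament, had H3K27me3 alone. Col26a1 joined the H3K27me3 group and Col7a1, the anchoring fibril of skin, had both marks. Of the FACITs, which sit on fibril surfaces, Col12a1, Col16a1 and Col20a1 had H3K27ac alone, Col9a1, Col9a3 and Col19a1 H3K27me3 alone, and Col9a2 and Col14a1 both. The multiplexin Col15a1 and the transmembrane collagens Col13a1, Col17a1 and Col25a1 had H3K27me3 alone, while the multiplexin Col18a1, the parent of endostatin, and the transmembrane Col23a1 had both.

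**Figure D1:**
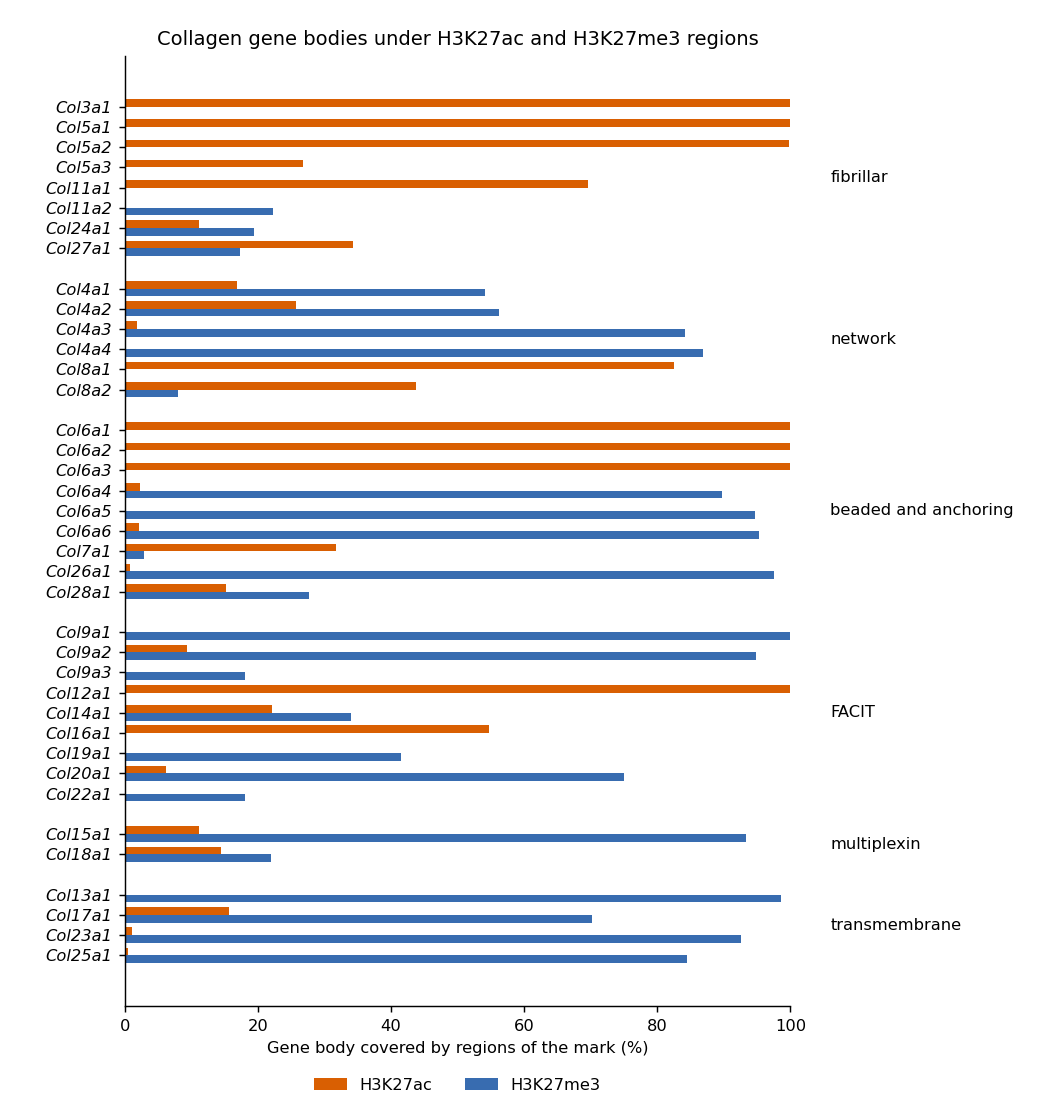
Percent of each gene body covered by regions of H3K27ac (orange) and H3K27me3 (blue), for the 38 genes by family. Cover ranges widely within families, from Col6a1 at 100% H3K27ac to Col6a6 at 95.2% H3K27me3 among collagen VI chains, with fibrillar genes at up to 22.3% H3K27me3, and all 4 transmembrane collagens are mostly under H3K27me3.

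How far the mark of the promoter reached over the gene body differed between genes. The 12 genes with H3K27ac alone at the promoter had a median of 99.9% of the body under H3K27ac regions, from 6.18% at Col20a1 to 100%. The 14 genes with H3K27me3 alone had a median of 88.3% under H3K27me3, from 18.0% at Col9a3 to 100% at Col9a1. Genes with both marks had less of each, with medians of 19.5% and 27.9%. The plot of gene body cover shows Col20a1 as an exception, since its promoter lay in an H3K27ac region that is mostly upstream and also holds the start of Arfgap1, while 75.0% of its body lay in an H3K27me3 region of 175 kb that also held the starts of other genes.

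The acetylated collagens had some of the widest H3K27ac regions of the set. A region of 181.5 kb covered all of Col5a1, 143 kb covered Col12a1, 132 kb Col5a2 and 117 kb Col6a3, against a median of 10 kb over all 9335 promoter regions of the mark. Per kb the densest was Col6a1 at 1.89 RPM per kb, above 96.9% of promoter regions. Col3a1 followed at 1.55 RPM per kb, then Col5a1 and Col11a1 at 1.53, Col5a2 at 1.51, Col16a1 at 1.39, Col12a1 at 1.38 and Col6a3 at 1.37. The 6 samples at Col6a1 ran from 1.63 to 2.17 RPM per kb and those at Col3a1 from 1.28 to 1.68, and the samples of each later pair of neighbours in this order overlapped as well. The median over the 21 collagen promoter regions was 1.26 RPM per kb, beside 1.17 over all promoter regions.

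H3K27me3 domains were as wide. The region over Col13a1 spanned 199 kb, that over Col9a1 150 kb, and those over Col26a1 and Col23a1 145 kb each, against a median of 26.5 kb over all 5932 promoter regions of the mark. Per kb Col26a1 was the densest of the collagens at 1.54 RPM per kb, followed by Col11a2 at 1.51, Col27a1 at 1.37 and Col19a1 at 1.34. The regions over Col6a5, Col23a1, Col6a4 and Col13a1 lay between 1.19 and 1.22 RPM per kb. The samples of neighbours in this order overlapped. The median over the 23 collagen promoter regions was 1.06 RPM per kb, beside 0.999 over all promoter regions. The domain of Col27a1 also held the starts of Ambp and Kif12.

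**Figure D2:**
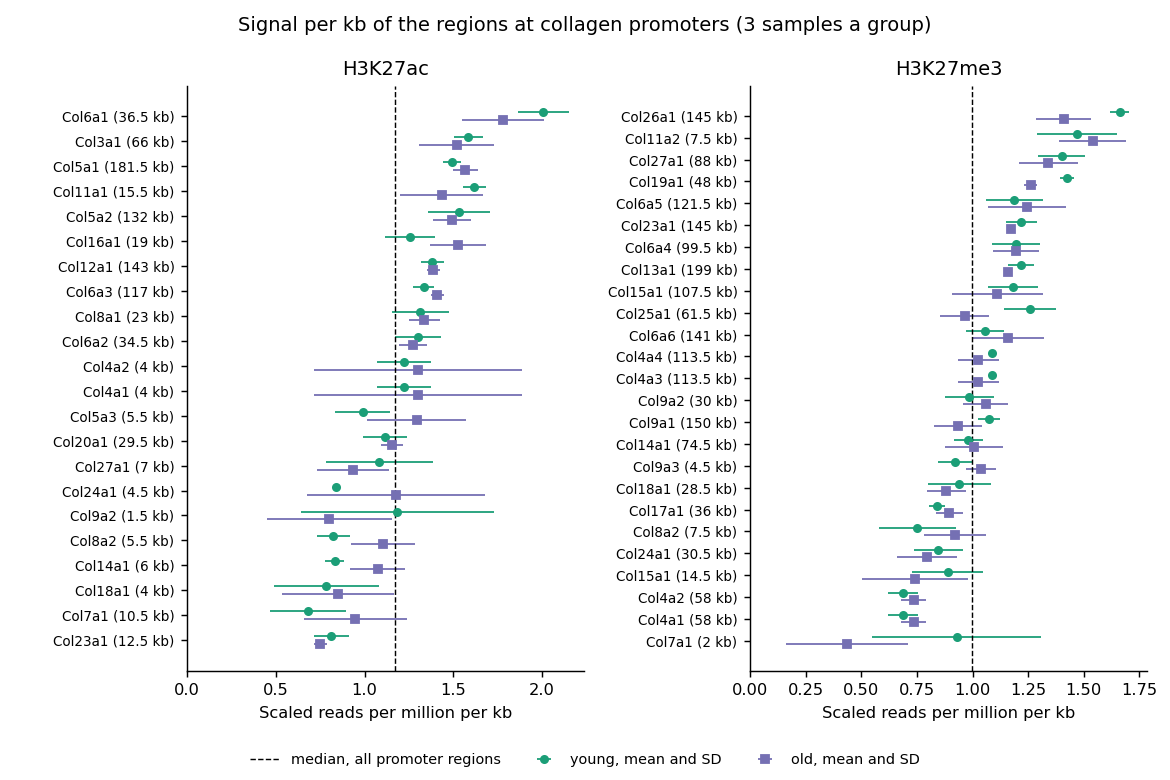
Scaled RPM per kb of each region at a collagen promoter, mean and SD of 3 young (green circles) and 3 old (purple squares) samples, with the median of all promoter regions as a dashed line. Col6a1 leads H3K27ac at 2.01 in young and 1.78 in old samples, and Col26a1 leads H3K27me3 in young samples at 1.66.

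Where a promoter carried both marks, the H3K27ac region was 1.5 kb (Col9a2) to 12.5 kb (Col23a1) wide, beside a median of 10 kb over all promoter regions. Several lay wholly inside a larger H3K27me3 domain, while at Col7a1 the H3K27ac region of 10.5 kb was wider than the H3K27me3 region of 2 kb. Col4a1 and Col4a2 are transcribed away from each other, and their shared start lay in an H3K27ac region of 4 kb (chr8:11310001-11314000) wholly within an H3K27me3 domain of 58 kb (chr8:11261501-11319500). The H3K27ac regions of Col24a1, Col27a1, Col9a2 and Col14a1 were likewise 100% inside. For Col8a2 45.5% of the acetylated region was inside, for Col7a1 19.0% and for Col23a1 12%. At Col18a1 the overlap was 0%, because the marks sat on different promoters of the gene. The libraries are bulk samples, in which fewer cells with a mark and less of the mark per cell cannot be told apart, and whether these marks shared a chromosome was not tested.

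None of these promoters was called between the ages in either mark. H3K27ac at the Col4a1 and Col4a2 start was 4.90, 5.48 and 4.28 RPM in young and 2.79, 7.47 and 5.35 RPM in old samples. The old values spread on both sides of the young ones (log2 fold change -0.01, SE 0.28, adjusted p = 0.996, limma). H3K27me3 over the domain was 39.8 ± 3.99 RPM in young and 42.6 ± 3.29 in old (SD, n = 3), with a log2 fold change of 0.10 that was -0.02 in the signal as deposited.
For H3K27ac at the other promoters with both marks, the fold changes ran from -0.46 at Col9a2, through -0.19 at Col27a1, -0.10 at Col23a1 and 0.12 at Col18a1, to 0.47 at Col7a1. All 3 old samples exceeded all young ones at Col14a1 (0.35) and Col8a2 (0.40), and the groups overlapped at Col24a1 (0.37). For H3K27me3 the values lay between -0.09 (Col24a1) and 0.30 (Col8a2), except at Col7a1. There a 2 kb promoter region, listed in the file as a region of young cells alone, had 2.47, 1.01 and 2.09 RPM in young and 0.327, 0.853 and 1.43 RPM in old samples, which overlap (log2 fold change -0.97, adjusted p = 0.280, limma).

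The comparison of old with young cells asked whether either mark changed with age at the collagens. Few regions passed the test of the whole table at an adjusted p under 0.05. For H3K27ac 0 of 107 collagen regions were called by limma, beside 0.0822% of all regions, and edgeR and DESeq2 on the recovered reads also called 0. At an unadjusted p under 0.05 there were 14 (5 higher and 9 lower), or 13.1%, against 9.6% of all regions (4.63% higher and 4.97% lower), and 11 by edgeR and 2 by DESeq2. The ages did not overlap in 6 regions that were higher and 8 that were lower in old samples, 5.61% and 7.48%, close to the 7.09% and 7.42% of all regions. The sign was negative in 49 regions, or 45.8%, against 50.4% of all. The median log2 fold change was 0.03, beside -0.003 for all regions.

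For H3K27me3 the collagens leaned lower in old cells. Of 103 regions 64, or 62.1%, had a negative sign, against 51.4% of all regions. By limma 1 was called, lower in old and with a state of young cells alone in the file, beside 0.488% of all regions (0.406% lower), while edgeR called 3, DESeq2 0 and limma on the signal as deposited 11. At an unadjusted p under 0.05 there were 26 regions, 25.2%, against 13.9%. Of these 21 were lower and 5 higher, beside 8.73% and 5.16% of all regions. The ages did not overlap in 23 regions that were lower, 22.3% against 10.6%, and in 6 that were higher, 5.83% against 8.56%. The median was -0.10, beside -0.01 for all regions, and in the signal as deposited, where all regions shift to a median of -0.13 (-0.12 for H3K27ac), it was -0.22.

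The file lists 10 of the 103 regions as regions of young cells alone, a state set on these same libraries, and all 10 were lower in old. In a count added after the data were seen, the 93 regions with a state of both ages had 54 that were lower (58.1%, against 49.9% of all regions of that state) and 0 called (0.324%). They held 17 that were lower without overlap (18.3% against 8.75%) and 20 with an unadjusted p under 0.05 (21.5% against 12%), and their median was -0.07.

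Col25a1 made up most of this lean. It held 23 of the 103 regions, since its 468 kb body is broken into many domains. In a count made after its values were seen, the 80 regions of the other genes had 41 lower and 39 higher. They held 9 that were lower without overlap (11.25%) and 11 with an unadjusted p under 0.05 (13.75%), near the 10.6% and 13.9% of all regions, and their median was -0.02. Of the 75 among them with a state of both ages, 36 were lower.

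**Figure D3:**
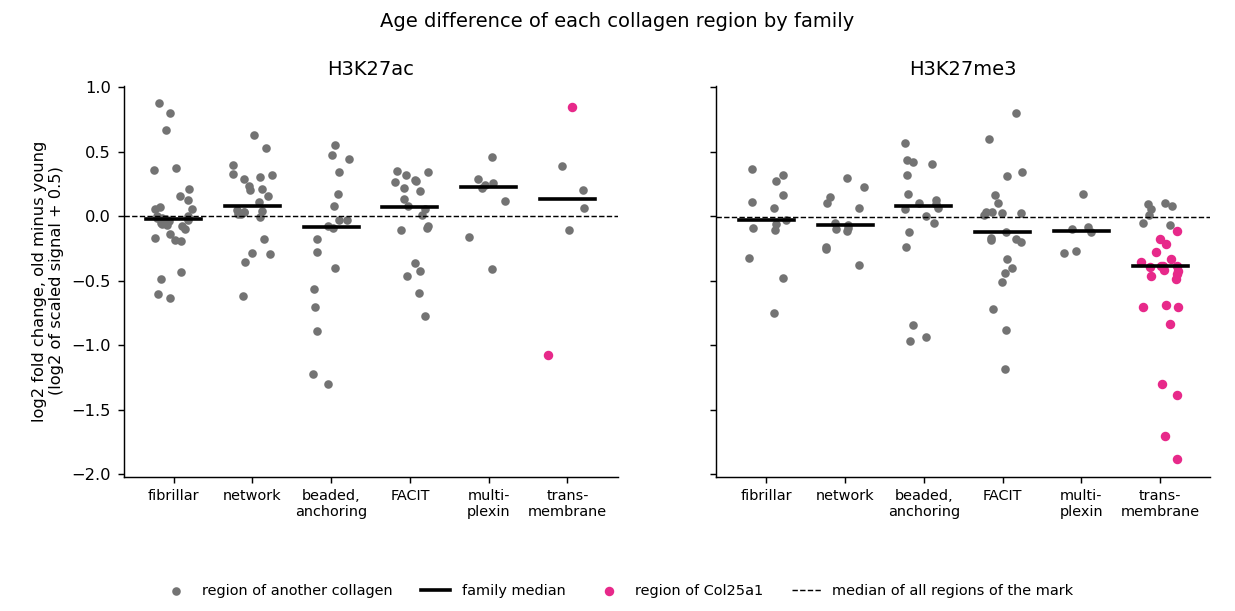
Log2 fold change, old minus young, of each collagen region by family, for H3K27ac (left) and H3K27me3 (right), with family medians as bars and the median of all regions of the mark as a dashed line. Medians lie between -0.12 and 0.23 apart from H3K27me3 at transmembrane collagens, at -0.39, where 23 of 30 regions belong to Col25a1 (magenta).

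Col25a1 encodes a membrane collagen whose shed ectodomain is found in amyloid plaques and which guides motor axons into muscle. It lies at chr3:130131501-130599877 on the plus strand, and 84.4% of its body was under H3K27me3, with 0.427% under H3K27ac. All 23 of its H3K27me3 regions had less signal in old samples, and the median fold change was -0.43. In 14 of them the ages did not overlap (60.9%, against 10.6% of all regions). The 23 are neighbouring stretches of the same locus in the same samples, so they are not independent observations. The last of the 23, downstream, lies outside the body and over the start of Etnppl. The file lists 5 of the 23 as regions of young cells alone. That state was set on these same libraries, so those 5 are no independent sign of the direction. In the 18 with a state of both ages, all were lower, and the median was -0.39. Of these 10 were without overlap (55.6%, against 8.75% of all regions of that state).

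The called region was a 4 kb stretch of intron 120 kb from the nearest coding transcript start (chr3:130301001-130305000), with a state of young alone, so it was listed only through the age in which it is high. Its reads numbered 43, 34 and 38 in young and 10, 5 and 12 in old libraries. Scaled, these were 4.25, 3.42 and 4.97 RPM in young and 1.09, 1.42 and 1.90 RPM in old samples. Every old sample lay below every young sample. The means were 4.21 ± 0.775 and 1.47 ± 0.408 RPM (SD, n = 3), a log2 fold change of -1.39 (SE 0.27, adjusted p = 0.0282, limma). The call was lost without young replicate 1 (adjusted p = 0.236), 2 (0.0961) or 3 (0.207), without old replicate 1 (0.0531), and without trend and robust moderation (0.0801). DESeq2 did not call the region either.

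The domain over the Col25a1 promoter, 61.5 kb wide, covered the sequence shown above. It held 77.8, 70.0 and 84.2 RPM in young and 66.7, 53.2 and 58.2 RPM in old samples. The lowest young sample was above the highest old sample. The log2 fold change was -0.38 (SE 0.10, adjusted p = 0.0849, limma), and the region passed by edgeR (0.0444) and in the signal as deposited (0.0234). In the signal as deposited all H3K27me3 regions shift lower in old, to a median of -0.13.

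The 60 kb domain at the far end of the gene was of the same kind. It had 50.6, 46.0 and 58.5 RPM in young and 38.9, 36.1 and 40.6 RPM in old samples, with a log2 fold change of -0.42 (adjusted p = 0.0724). The domain of 48.5 kb in the middle averaged 36.6 ± 3.75 RPM in young and 27.9 ± 2.53 RPM in old samples (SD, n = 3), without overlap (log2 fold change -0.39, adjusted p = 0.107). None of these passed the test by limma.

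Summed over its regions, Col25a1 had 385, 339 and 398 RPM of H3K27me3 in young and 290.0, 247 and 314 RPM in old samples. The ages did not overlap, and the log2 fold change was -0.40 (SE 0.091, adjusted p = 0.0571 over all genes with a region, limma). This value missed the threshold, and it passed by edgeR (0.0302), by DESeq2 (0.0122), in the signal as deposited (0.00781) and without old replicate 3 (0.000179). The signal as deposited carries the shift of all regions toward lower values in old named above.
Outside the gene body, 16 regions lay within 500 kb. Of these 11 were lower, 4 without overlap, 0 called and 4 with an unadjusted p under 0.05. Among all regions with a state of both ages, 8.75% were lower without overlap and 12% had such a p. The median outside was -0.08 against -0.44 for the 22 regions that touch the body. All regions outside had a state of both ages, but 5 of those 22 had a state of young alone, so these medians are not like for like. The 18 Col25a1 regions with a state of both ages had a median of -0.39. The nearest regions outside, at -0.28 upstream and -0.38 downstream over the start of Etnppl, were also lower in old without overlap, so lower values were also found beside the gene. The downstream one reaches within 10 kb of the gene, so it is also among the 23 Col25a1 regions and in the summed signal. A test of inside against outside was not made.

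**Figure D4:**
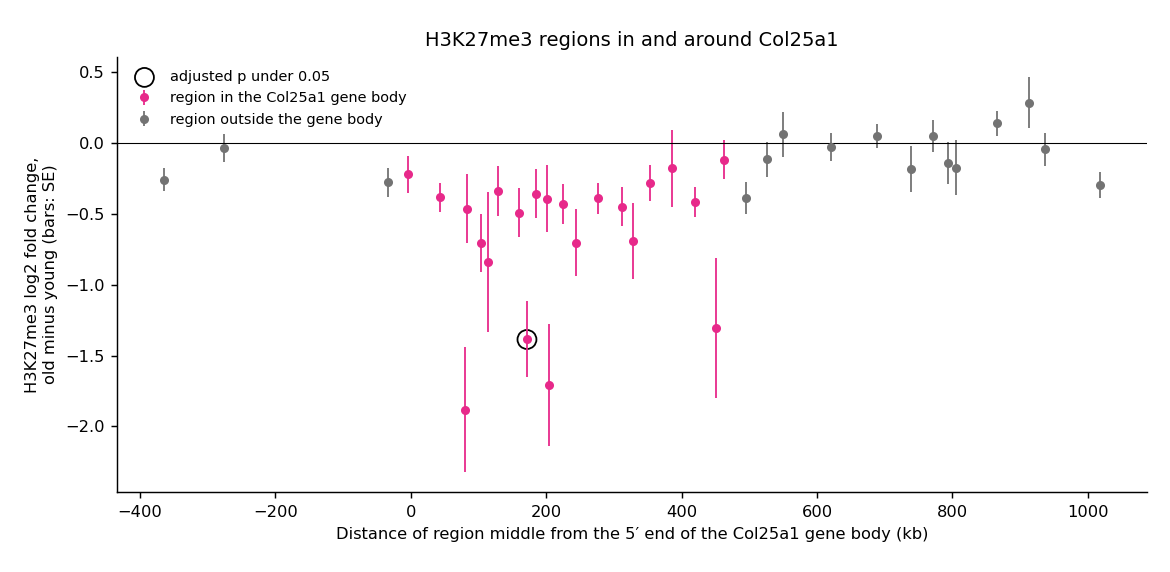
H3K27me3 log2 fold change with SE of each region against the distance of its middle from the 5′ end of the Col25a1 gene body in kb, for regions in the body (magenta) and outside it (grey). The 22 regions in the body all lie below 0, with 1 called region (circled) at -1.39, and those outside scatter from -0.38 to 0.29. Of the 22, 5 have a state of young alone, the called one among them, while those outside all have a state of both ages.

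H3K27ac was nearly absent from Col25a1, with 2 small regions. That in the gene's middle, 1.5 kb wide (chr3:130432001-130433500) and overlapping the end of the 48.5 kb H3K27me3 domain, had 2.61, 2.02 and 1.81 RPM in young and 1.20, 0.393 and 1.27 RPM in old samples. It was lower in old without overlap (log2 fold change -1.08, adjusted p = 0.444, limma). It rested on 16, 7 and 11 reads in young and 6, 1 and 5 in old libraries. The other region, 0.5 kb wide, went the opposite way, at 0.533 ± 0.266 RPM in young and 1.19 ± 0.593 RPM in old samples. The ages overlapped there (log2 fold change 0.84, adjusted p = 0.689, limma). Summed H3K27ac of the gene was at -0.32, also with overlap (adjusted p = 0.831, limma).

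Among beaded and anchoring collagens, Col26a1 and Col28a1 went opposite ways in H3K27me3. The 145 kb domain of Col26a1, a collagen first described in testis and ovary, held 240, 235 and 248 RPM in young and 213, 217 and 184 RPM in old samples. All old values were below the young ones (log2 fold change -0.24, SE 0.080, adjusted p = 0.164, limma). Over the 6 regions in and beside Col28a1, a gene with neither mark at its promoter, the sum was 35.7, 31.9 and 36.4 RPM in young and 40.7, 53.5 and 42.6 RPM in old samples. The old samples were the higher ones, without overlap (log2 fold change 0.39, adjusted p = 0.139, and 0.0287 without old replicate 3). H3K27ac summed over the 7 regions of Col28a1 was 41.6, 39.5 and 36.7 RPM in young and 35.7, 35.4 and 32.4 RPM in old samples, lower in old without overlap (log2 fold change -0.19, adjusted p = 0.556). Its regions ran from -1.30, in a 2 kb region over an exon with at most 6 reads in old libraries (adjusted p = 0.394, with overlap), to 0.34.

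No collagen VI region passed the test. The collagen VI domains of H3K27me3 had fold changes of 0.06 over Col6a5 and -0.001 at Col6a4, signs that turned in the signal as deposited (-0.06) and with TMM scaling (0.003), respectively. For H3K27ac, Col6a1 had 79.2, 70.7 and 69.9 RPM in young and 60.8, 59.4 and 74.7 RPM in old samples, which overlap (log2 fold change -0.18, adjusted p = 0.543). The 27.5 kb region upstream of Col6a2 averaged 45.2 ± 7.11 RPM in young and 37.3 ± 6.53 RPM in old samples, also with overlap (-0.28, adjusted p = 0.441). Col6a3 was at 156 ± 6.84 and 165 ± 4.46 RPM (0.08, adjusted p = 0.721), and at -0.04 in the signal as deposited.

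Col7a1 was the only collagen gene of the set called on summed H3K27ac, 1 of 32 genes, beside 0.603% of all protein-coding genes with a region. An unadjusted p under 0.05 was reached by 4 collagen genes, beside 10.5% of all. Its 3 regions summed to 25.0, 31.4 and 37.0 RPM in young and 40.3, 51.5 and 41.3 RPM in old samples. Each old sample exceeded each young sample, and the log2 fold change was 0.52 (SE 0.12, adjusted p = 0.0253, limma). The call was lost in the signal as deposited (0.659), by DESeq2 (0.44), without moderation (0.543), without young replicate 1 (0.538) and without old replicate 2 (0.298).

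Much of that sum was not specific to Col7a1. The largest part came from a 16.5 kb region downstream of the gene (chr9:108987001-109003500) that holds the start of Pfkfb4, an enzyme of glucose metabolism. It had 14.2, 15.9 and 18.6 RPM in young and 21.7, 25.6 and 24.2 RPM in old samples, without overlap (log2 fold change 0.55, SE 0.14, adjusted p = 0.136). With the gene body alone, 0 collagen genes were called. Col16a1, a FACIT, had the next smallest p, at 56.0 ± 0.656 RPM in young and 65.9 ± 3.65 RPM in old samples without overlap (0.23, adjusted p = 0.289). At its promoter region the ages overlapped (0.28, adjusted p = 0.482).

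**Figure D5:**
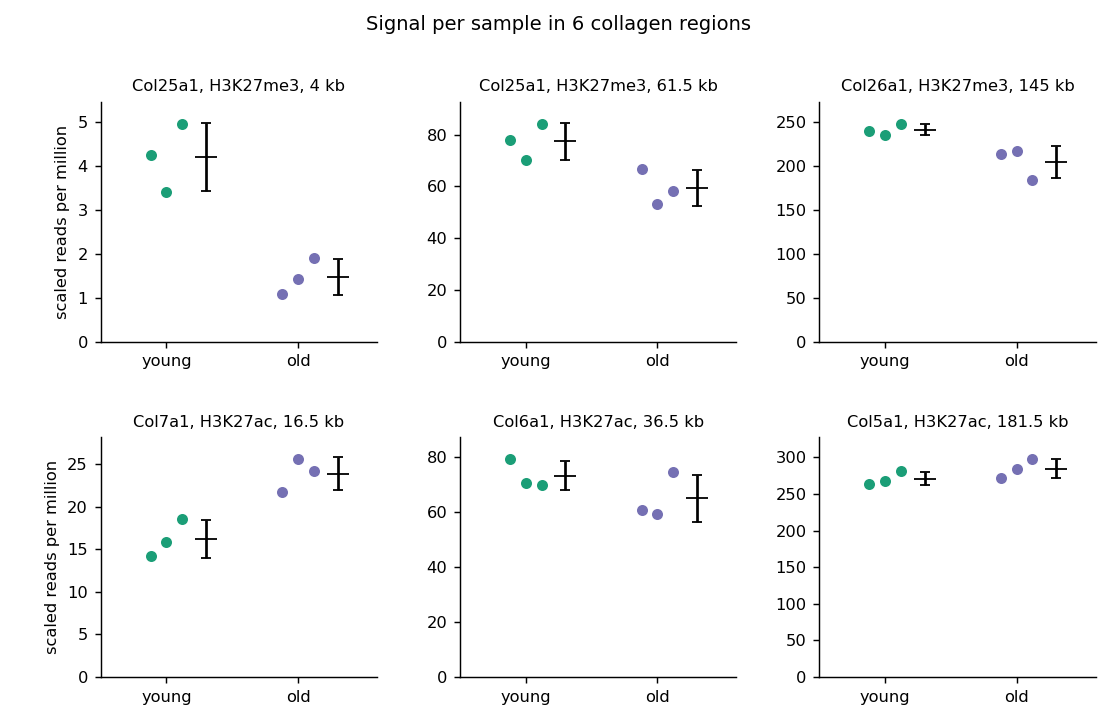
Scaled RPM in each young (green) and old (purple) sample, with mean and SD (n = 3), for 6 collagen regions. Old samples lie below young ones in both Col25a1 regions and at Col26a1 and above them in the 16.5 kb region near Col7a1, and they overlap at Col6a1 and Col5a1.

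No fibrillar or network collagen was called. The Col5a1 region had 264, 267 and 281 RPM of H3K27ac in young and 271, 284 and 298 RPM in old samples (log2 fold change 0.07, SE 0.052, adjusted p = 0.711), and -0.05 in the signal as deposited. The region over Col3a1, which reaches toward the neighbouring Col5a2, was at 105 ± 5.22 and 100 ± 14 RPM (-0.07, adjusted p = 0.846), and at 0.05 without old replicate 2. Col5a2 itself was at 202 ± 23.0 and 197 ± 14 RPM (-0.03, adjusted p = 0.916).
Col11a1 leaned lower at an inner region of 12.5 kb, with 12.1, 11.8 and 10.4 RPM in young and 8.97, 8.26 and 7.90 RPM in old samples. The ages did not overlap there (log2 fold change -0.44, adjusted p = 0.438), while its promoter region differed by -0.19 with overlap. H3K27me3 at Col11a2 (0.07, and -0.05 in the signal as deposited) and Col27a1 (-0.06) differed by less than the spread of the samples.

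In the network family, an H3K27ac region of 11 kb in the body of Col4a2 had 7.35, 6.06 and 11.2 RPM in young and 12.4, 12.2 and 10.2 RPM in old samples. The highest young sample lay among the old ones (log2 fold change 0.53, adjusted p = 0.383). Summed over the gene and its flanks, Col4a1 was at 27.8 ± 4.31 and 33.8 ± 2.12 RPM (0.29, adjusted p = 0.338). That sum includes the same 11 kb region, which reaches within 10 kb of Col4a1. Summed likewise, Col4a2 was at 37.5 ± 3.64 and 43.0 ± 6.14 RPM, with overlap (0.19, adjusted p = 0.544). Col4a3 had 8.90 ± 0.562 and 6.42 ± 0.839 RPM, lower in old without overlap (-0.46, adjusted p = 0.427), in 2 small regions of which 1 holds the start of Mff.

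On summed H3K27me3, 0 of 31 collagen genes were called by limma, beside 0.506% of all genes with a region, while edgeR and DESeq2 each called 1. An unadjusted p under 0.05 was reached by 8, beside 14.9% of all genes, namely Col25a1, Col28a1, Col7a1, Col26a1 and the FACITs Col9a1, Col9a3, Col19a1 and Col22a1. The sums of Col9a1 and Col19a1 are not separate, since the 150 kb region over Col9a1 is also among the 9 regions of Col19a1. That region averaged 161 RPM in young and 140 RPM in old samples, within Col19a1 sums of 301 and 265 RPM. Col9a3, a chain of the collagen IX of cartilage, had 45.0, 44.7 and 45.2 RPM in young and 55.2, 63.4 and 51.5 RPM in old samples, higher in old without overlap (0.33, adjusted p = 0.150), mostly in a region that also holds the start of Tcfl5. Col22a1, a collagen of tissue junctions, had 31.4, 27.3 and 33.0 RPM in young and 21.7, 20.5 and 28.5 RPM in old samples, with overlap (-0.38, adjusted p = 0.209). Without old replicate 3, the adjusted p was 0.0178 for Col9a3 and 0.0139 for Col22a1, and 4 collagen genes were called.

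Col14a1, a FACIT of tendon and skin, had sums of both marks that overlapped between the ages, with a log2 fold change of -0.12 for H3K27ac over 9 regions and 0.10 for H3K27me3 over 7. Of the H3K27ac regions 5 were lower and 4 higher in old. Of the 7 H3K27me3 regions 0 were lower, and 2 were higher without overlap, beside 8.56% of all regions. An unadjusted p under 0.05 was reached by 2 of the 7 (limma), beside 13.9% of all regions. The regions with the smallest p follow. H3K27ac at 122 kb from the start had 3.10, 2.89 and 4.60 RPM in young and 1.59, 1.57 and 2.80 RPM in old samples, without overlap (log2 fold change -0.77, adjusted p = 0.463). At 165 kb it averaged 11.7 ± 0.703 RPM in young and 8.79 ± 1.94 RPM in old samples, with overlap (-0.43, adjusted p = 0.463). H3K27me3 in a 3.5 kb region 113 kb from the start, named after its values were seen, had 1.58, 1.91 and 1.83 RPM in young and 2.84, 4.27 and 2.85 RPM in old samples. It was higher in old without overlap (0.80, adjusted p = 0.158). None of these passed the test.
Of the other FACITs, Col12a1 had H3K27ac of 198 ± 9.10 and 198 ± 5.18 RPM (0.01, but -0.11 in the signal as deposited and -0.003 with TMM scaling). H3K27me3 over the Col19a1 promoter was 66.9, 68.2 and 70.0 RPM in young and 60.2, 59.1 and 62.1 RPM in old samples, lower without overlap (-0.18, adjusted p = 0.376). Of the 9 H3K27me3 regions of Col19a1 8 were lower in old, beside 51.4% of all regions. Lower without overlap were 2 of the 9, beside 10.6% of all regions. The wide H3K27me3 domains of the transmembrane collagens Col13a1 (-0.07) and Col23a1 (-0.05) were not called.

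The rest of the collagen pathway was taken as 54 genes in 5 lists, with 96 H3K27ac regions over 49 genes and 52 H3K27me3 regions over 30. For H3K27ac 0 regions were called by limma (0.0822% of all regions) and 0 by DESeq2, while edgeR called 2. An unadjusted p under 0.05 was reached by 18, beside 9.6% of all regions. By list the numbers with an unadjusted p under 0.05 were 3 of 5 regions of other collagens, 3 of 28 of synthesis and folding, 6 of 26 of propeptide cleavage and cross-linking, 5 of 25 of receptors and 1 of 12 of breakdown. For H3K27me3 the same counts were 0 of 9, 2 of 15, 1 of 20, 0 of 3 and 1 of 5, beside 13.9% of all regions, and 1 region was called, higher in old, beside 0.082% of all regions.

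The called region lay downstream of P4ha2, a subunit of the prolyl hydroxylase that stabilises the collagen helix (chr11:54139501-54145000). Its H3K27me3 was 4.74, 4.12 and 4.84 RPM in young and 7.75, 9.38 and 8.56 RPM in old samples, higher in old without overlap (log2 fold change 0.87, SE 0.18, adjusted p = 0.0321, limma). H3K27ac in the 2 kb at the same place was 2.45, 4.33 and 4.11 RPM in young and 6.98, 8.65 and 8.41 RPM in old samples, also higher without overlap but not called (1.12, adjusted p = 0.0612, and 0.0193 by edgeR). The H3K27me3 call was lost without young replicate 1 (adjusted p = 0.204), 2 (0.177) or 3 (0.192), without old replicate 3 (0.0522) and without moderation (0.0693). DESeq2 did not call this H3K27me3 region either.
The other pathway regions with the smallest p were not called. H3K27ac over Col2a1, the main cartilage collagen, was 26.9, 41.0 and 38.5 RPM in young and 45.0, 57.4 and 46.1 RPM in old samples (0.49, adjusted p = 0.138, and 0.0227 by edgeR). On the summed signal of all genes Col2a1, which lies outside the set, was called (adjusted p = 0.0481, limma). H3K27ac in a 1.5 kb intron region of Tll1, a procollagen protease, was at -1.70 (adjusted p = 0.224), on at most 2 reads in old libraries, in a region with a state of young alone. The sum over the 4 H3K27ac regions of Tll1 was at 0.03 and its promoter region at 0.33, higher in old without overlap (adjusted p = 0.670). H3K27me3 near Mia3, a collagen export receptor, was at -0.48 (adjusted p = 0.0893), and near Loxl3, a cross-linking oxidase, at -0.35 (adjusted p = 0.205, and 0.0354 without old replicate 2) in a region that holds the start of Tlx2.

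The labelled cell type was checked at promoters of marker genes. Of 6 MSC markers, Pdgfra, Ly6a, Thy1, Eng and Cd44 had H3K27ac alone and Nt5e had both marks. The 4 epithelial markers and 3 of 4 endothelial markers had H3K27me3 alone, with Pecam1 under H3K27ac. Of the blood markers reported here Cd3e had H3K27me3, Ptprc and Adgre1 had neither, and Cd68 and Csf1r had H3K27ac, Cd68 within a 44.5 kb region that holds the starts of 4 other genes. Of the regions at these promoters none was called between the ages (limma), and Kdr alone had an unadjusted p under 0.05. The part of other cell types in the collagen results was not tested.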

How the data were processed

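H3K27ac and H3K27me3 were profiled by CUT&RUN in 3 young and 3 old MSC samples each. The authors' processing notes name Bowtie2, Picard and mm10 (GRCm38), and the peak caller is not given in the sources used here. The deposited signal, named RPKM by the authors, held whole reads, scaled to library size, divided by a constant 0.5 kb, not by region length, so the values were used as signal and reads were recovered (100% whole within 1e-06). Levels were rescaled between the 6 samples of a mark by median of ratios. Old and young were compared with limma 3.58.1 (R 4.3.3; trend, robust, two-sided) on log2(signal + 0.5), with no filter and Benjamini-Hochberg adjustment over all regions or, for summed signal, all protein-coding genes with a region. Calls are at an adjusted p under 0.05, and quoted adjusted p are limma's unless named. The tests were checked on simulated data, where 33% (H3K27ac) and 56% (H3K27me3) of regions changed by a log2 of 1 were called, and 89% and 98% at a log2 of 2. The changes were placed only in regions above a floor of mean reads, with the same fixed spread between samples for all regions. Recovery in regions with few reads or at smaller changes was not tested. Alternatives used edgeR 4.0.16 and DESeq2 1.42.0 on recovered reads, other scalings, pseudocounts and filters, a replicate block, and leaving out each sample. Genes came from GENCODE release 21 for mouse.

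The members and lists were chosen with earlier results of these data known. Regions were named when called, among the 8 smallest p or the 8 densest promoters of a mark, or at a promoter with both marks, and genes when called or among the 5 smallest p of their summed signal. Pathway regions were named when called or among the smallest p. The files also mark each region as young, old or both, a state set by the authors on these libraries. Figures were drawn with matplotlib 3.10.9. A marker gene of the blood list is not reported here.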

Additional observations from a re-analysis of the deposited data

How the results depend on the processing

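Most results kept their direction and side of the threshold: of 951 alternative values of single regions and genes 873 were counted so, and of 163 alternative values of the counts and medians 123 were. Single values to which DESeq2 gave no adjusted p were counted as kept. They include the called H3K27me3 regions of Col25a1 and P4ha2, which DESeq2 did not call. With a pseudocount of 2 the H3K27me3 collagen regions called were 2 and the H3K27ac pathway regions 1. In the signal as deposited, 11 H3K27me3 collagen regions, 2 H3K27me3 collagen genes, 0 H3K27ac collagen genes and 2 H3K27me3 pathway regions were called, and the medians were -0.0891 (H3K27ac) and -0.222 (H3K27me3). Without moderation the counts were 0 H3K27ac genes, 0 H3K27me3 regions and 0 H3K27me3 pathway regions. With edgeR they were 3 H3K27me3 regions, 1 H3K27me3 gene and 2 H3K27ac pathway regions, and with DESeq2 0 H3K27ac genes, 0 H3K27me3 regions, 1 H3K27me3 gene and 0 H3K27me3 pathway regions. With the lower quartile left out, 0 H3K27me3 regions were called, and 15 Col25a1 regions remained to be tested, 15 lower in old. With the gene body alone 0 H3K27ac genes were called, and with at least 50% of a region inside 0 for H3K27ac and 1 for H3K27me3. With regions above the median signal per kb, 14 collagen promoters had H3K27ac and 0 both marks. Leaving out 1 sample gave 0 to 1 H3K27ac genes, 0 to 2 H3K27me3 regions, 0 to 4 H3K27me3 genes, 0 to 2 H3K27me3 pathway regions and an H3K27me3 median from -0.171 to -0.0649. Except where a construction left fewer regions or samples, the cause was not tested.

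Same-numbered samples did not pair: their deviations correlated at -0.08 to 0.07. With the replicate block, 3 H3K27me3 collagen regions and 2 H3K27ac pathway regions were called.

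Signs turned at regions whose main fold change lay between -0.19 (H3K27ac at Col27a1) and 0.12 (H3K27ac at Col18a1). For H3K27ac, leaving out 1 sample gave -0.149 to 0.0479 at Col3a1, -0.123 to 0.0417 at Col5a2, -0.0329 to 0.0326 at Col12a1, -0.383 to 0.00792 at Col27a1, -0.157 to 0.364 at Col18a1 and -0.309 to 0.364 at the Col4a1 and Col4a2 start. The signal as deposited gave -0.0488 at Col5a1, -0.114 at Col12a1 and -0.0376 at Col6a3. Col12a1 also turned with TMM (-0.00264), edgeR (-0.00229) and DESeq2 (-0.00215), and the Col4a1 and Col4a2 start with a pseudocount of 2 (0.00509) and DESeq2 (0.0347). For H3K27me3, leaving out 1 sample gave -0.00602 to 0.162 at Col11a2, -0.126 to 0.0176 at Col27a1, -0.0464 to 0.149 at Col6a5, -0.0764 to 0.0726 at Col6a4, -0.0566 to 0.132 at Col14a1 and -0.224 to 0.0133 at Col24a1. The signal as deposited gave -0.0536 at Col11a2, -0.0606 at Col6a5, -0.0906 at Col14a1, -0.0181 at Col9a2 and -0.0232 at Col4a1 and Col4a2, and TMM gave 0.00266 at Col6a4.

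The median region held 12 to 30 reads of H3K27ac and 28 to 79 of H3K27me3 per library, and narrow regions held fewer.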
